A study of Homo sapiens with 3 samples.

Results

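The 9 genes of the CHD family (CHD1 to CHD9) were examined for occupancy by CHD8, the product of one of them, and by TRRAP, a scaffold subunit of histone acetyltransferase complexes. The genes were taken by name, and every peak from 5 kb upstream of the annotated gene (GENCODE release 44, GRCh38) to its end was counted. They are 9 of 20033 protein-coding genes on the main chromosomes, and their spans held 33 of the 23393 CHD8 peaks and 18 of the 14735 TRRAP peaks. ChIP-seq, which sequences the DNA pulled down with a protein from chromatin, was applied to wild-type neural stem cells that had been derived from the human embryonic stem cell line H9. One library was made with an antibody against CHD8, another with an antibody against TRRAP and one more with control IgG, which was not analysed here. There were no replicates, the lists name no read totals, and the depth behind each peak is therefore unknown.

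CHD proteins slide, space or evict nucleosomes with an SNF2-type ATPase motor, and all carry paired chromodomains. Subfamily I (CHD1 and CHD2) acts at transcribed genes, and the chromodomains of CHD1 recognise methylated histone H3 lysine 4. Subfamily II (CHD3, CHD4 and CHD5) supplies the motor of the NuRD complex, which joins remodeling to histone deacetylation. Subfamily III (CHD6 to CHD9) includes CHD7, the gene mutated in CHARGE syndrome, and CHD8, a gene in which loss-of-function mutations are associated with autism and a large head. Mutations of CHD2 cause a childhood epilepsy. The comparison addressed whether the CHD8 protein occupies its own gene and those of its relatives, and whether TRRAP is found at the places it occupies.

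The reference sequence around the summits of the 4 strongest CHD8 peaks of the family that do not reach into an annotated untranslated region within the printed window is shown first, with the CHD8 gene leading and its second, internal site closing, because these sites carry most of what follows. Each run is 151 bases of GRCh38, centred on the CHD8 summit and written 5′ to 3′ on the strand of the CHD gene. Capitals mark exact matches to CCAAT (the NFY word), GGGGCGGGG (the SP word), and AANATGGC, the core of the site that the factor YY1 binds, each on either strand. The last of these was added after the sequences had been seen.
CHD8 promoter, chr14:21456352-21456502, minus strand: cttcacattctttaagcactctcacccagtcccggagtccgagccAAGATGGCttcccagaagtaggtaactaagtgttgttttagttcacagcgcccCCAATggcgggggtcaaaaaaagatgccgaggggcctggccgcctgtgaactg
CHD2 intron 2, chr15:92904108-92904258, plus strand: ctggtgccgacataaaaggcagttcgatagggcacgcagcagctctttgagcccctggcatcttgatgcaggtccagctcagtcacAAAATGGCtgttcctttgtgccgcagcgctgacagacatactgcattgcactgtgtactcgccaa
CHD2 upstream, at CHASERR, chr15:92882703-92882853, plus strand: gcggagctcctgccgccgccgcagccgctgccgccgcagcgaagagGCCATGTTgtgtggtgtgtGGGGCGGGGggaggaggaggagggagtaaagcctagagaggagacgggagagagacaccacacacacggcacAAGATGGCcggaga
CHD9 intron 1, chr16:53130655-53130805, plus strand: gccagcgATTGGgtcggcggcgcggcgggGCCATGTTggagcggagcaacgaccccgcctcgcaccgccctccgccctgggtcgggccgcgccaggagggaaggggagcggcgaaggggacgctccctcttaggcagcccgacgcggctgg
CHD8 intron 1, chr14:21437321-21437471, minus strand: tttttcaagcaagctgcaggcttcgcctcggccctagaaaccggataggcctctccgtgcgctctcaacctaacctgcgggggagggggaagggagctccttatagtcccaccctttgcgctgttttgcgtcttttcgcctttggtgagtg

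Promoter here means within 1 kb, up or down, of where the canonical transcript begins. A peak counted as a promoter peak if at least 1 bp of it lay there, so its summit can lie further out. Distances from a start site are negative upstream of it. CHD8 had a promoter peak at 8 of the 9 genes, all but CHD5, beside 55.9% of all protein-coding genes. TRRAP had one at 5 of the 9 (CHD1, CHD4, CHD6, CHD7 and CHD8), beside 34.9% of all genes, and each of these 5 also had CHD8, beside 34.0% of all genes with both. Of the 8 CHD genes with CHD8, 5 had TRRAP, a share close to the 60.7% of all genes with a CHD8 promoter peak. CHD8 and TRRAP each had a peak somewhere in the span of 8 genes, beside 64.1% and 43.3% of all genes. CHD5 had a peak of neither list, as did 34.8% of all genes. With 9 genes that were not drawn at random, these counts are a description.

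Peak strength is given as the fold, the authors' linear ratio of a peak to background, and as the percentage of the peaks of the same list that rank lower by significance. Folds moved in steps of 0.442 (CHD8) and 0.478 (TRRAP), and every peak of each list lay on such a step to within 0.05 of a step. Folds 1 step apart are therefore the smallest difference the lists can show. The folds give no sign of a background that varied from peak to peak. Within each list, family peaks of equal fold were also of equal significance, so fold and significance are not separate measures. By the strongest peak at the promoter, the CHD8 gene stood first with a CHD8 fold of 32.7, followed by CHD6 (13.7), CHD4 (12.0), CHD1 (11.5), CHD2 (11.1) and CHD3 (9.75), and CHD7 and CHD9 tied at 7.98. The median over all genes with a CHD8 promoter peak was 12.0, so only the CHD8 gene and CHD6 lay above it. CHD4, CHD1 and CHD2 followed one another at the smallest step, and without replicates no order among them can be read. TRRAP folds at the promoter were 10.1 at CHD7, 7.69 at CHD1 and 6.73 at each of CHD4, CHD6 and CHD8, against a median of 8.65 over all genes with a TRRAP promoter peak. CHD7 alone was above that median.

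**Figure D1:**
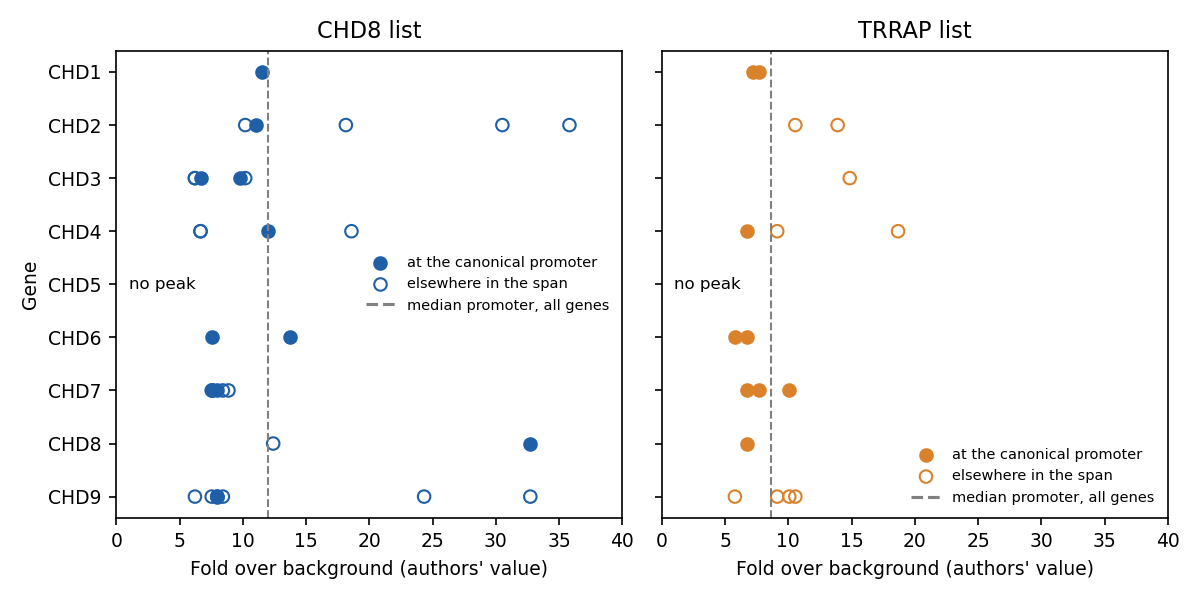
Fold of each CHD8 peak (left) and TRRAP peak (right) in the spans of the 9 CHD genes, with filled points at the canonical promoter, open points elsewhere, and a dashed line at the median promoter fold of all genes (12.0 and 8.65). The CHD8 gene has the only promoter point above 20 in the CHD8 list, and the strongest open points of CHD2, CHD4 and CHD9 lie to the right of their filled points.

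At its own gene, the CHD8 protein had 2 peaks. The promoter peak on chromosome 14 (21456025 to 21456797, 773 bp) had a fold of 32.7 and a −log10 q of 91.0, stronger than 97.8% of the CHD8 list. Its summit lay at −304 bp from the canonical start site, outside every annotated exon. Among 11208 genes with a CHD8 promoter peak, 420 had a higher fold, so the gene stood at the 96.1th percentile, while the width of its peak was at the 64.2th. The promoter had a CpG ratio (observed over expected CpG within 500 bp of the start site) of 0.643 and a GC content of 57.5%. The ratio was in decile 4 of all genes counted from the lowest, where 57.0% of genes had a CHD8 promoter peak. The TRRAP peak there (21456300 to 21456544, 245 bp) lay inside the CHD8 peak with its summit 51 bp away, and its fold of 6.73 was exceeded at 5567 of the 7000 genes with TRRAP at the promoter. The 3 genes with the most similar pair of promoter percentiles over the 2 libraries, among 6801 others with both peaks, were FRA10AC1 (CHD8 fold 33.2, TRRAP fold 6.73), STX10 and RNF19B (both 31.8 and 6.73).

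The other CHD8 peak of the gene was in intron 1 (21437234 to 21437942, 709 bp, fold 12.4, −log10 q 22.5), 18727 bp downstream of the canonical start site and at −88 bp from the start of another protein-coding CHD8 transcript. No TRRAP peak was called at this site. The gene thus had CHD8 at both sites and TRRAP at 1 of them. As many or more CHD8 peaks were found in 27.2% of all protein-coding genes. The lists hold occupancy and no expression, and whether the peaks bear on the level of CHD8 RNA was not tested.

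CHD7, which acts in neural crest and neural progenitors, had 6 CHD8 peaks on chromosome 8, all of them in the weaker 50% of the list. Of these, 3 were at the promoter: 60678348 to 60678644 (fold 7.54, with its summit at −146 bp), 60679078 to 60679240 (fold 7.98, 413 bp downstream) and 60679382 to 60679541 (fold 7.54, 744 bp downstream). They were 297, 163 and 160 bp wide. Among genes with a CHD8 promoter peak, the strongest of them ranked at the 11.8th percentile by fold and the 1.65th by width. Further peaks lay in intron 1 at 60680076 to 60680666 (fold 8.87, 591 bp) and 60681233 to 60681460 (fold 7.54), and in intron 3 at 60793006 to 60793213 (fold 8.43), 114363 bp into the gene. The 6 folds spanned 3 steps, from 7.54 to 8.87, so none stood apart from the others. The promoter itself was among the richest in CpG (ratio 1.08, above 99.8% of genes), a decile in which 86.1% had a CHD8 promoter peak.

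TRRAP at CHD7 was not of the same rank. Its 3 peaks were at 60678387 to 60678641 (fold 7.69), 60679364 to 60679589 (fold 10.1, stronger than 68.5% of the TRRAP list) and 60679740 to 60679930 (fold 6.73). The first and second had summits 26 and 7 bp from a CHD8 summit. The middle one was the strongest TRRAP promoter peak of the family, at the 61.9th percentile of genes with a TRRAP promoter peak. The last was the only TRRAP peak of the family that overlapped no CHD8 peak. Its summit lay at −44 bp from the start of another protein-coding CHD7 transcript, inside intron 1 of the canonical one. Folds of different lists are not on a common scale, so these values say nothing of which protein was more abundant there.

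**Figure D2:**
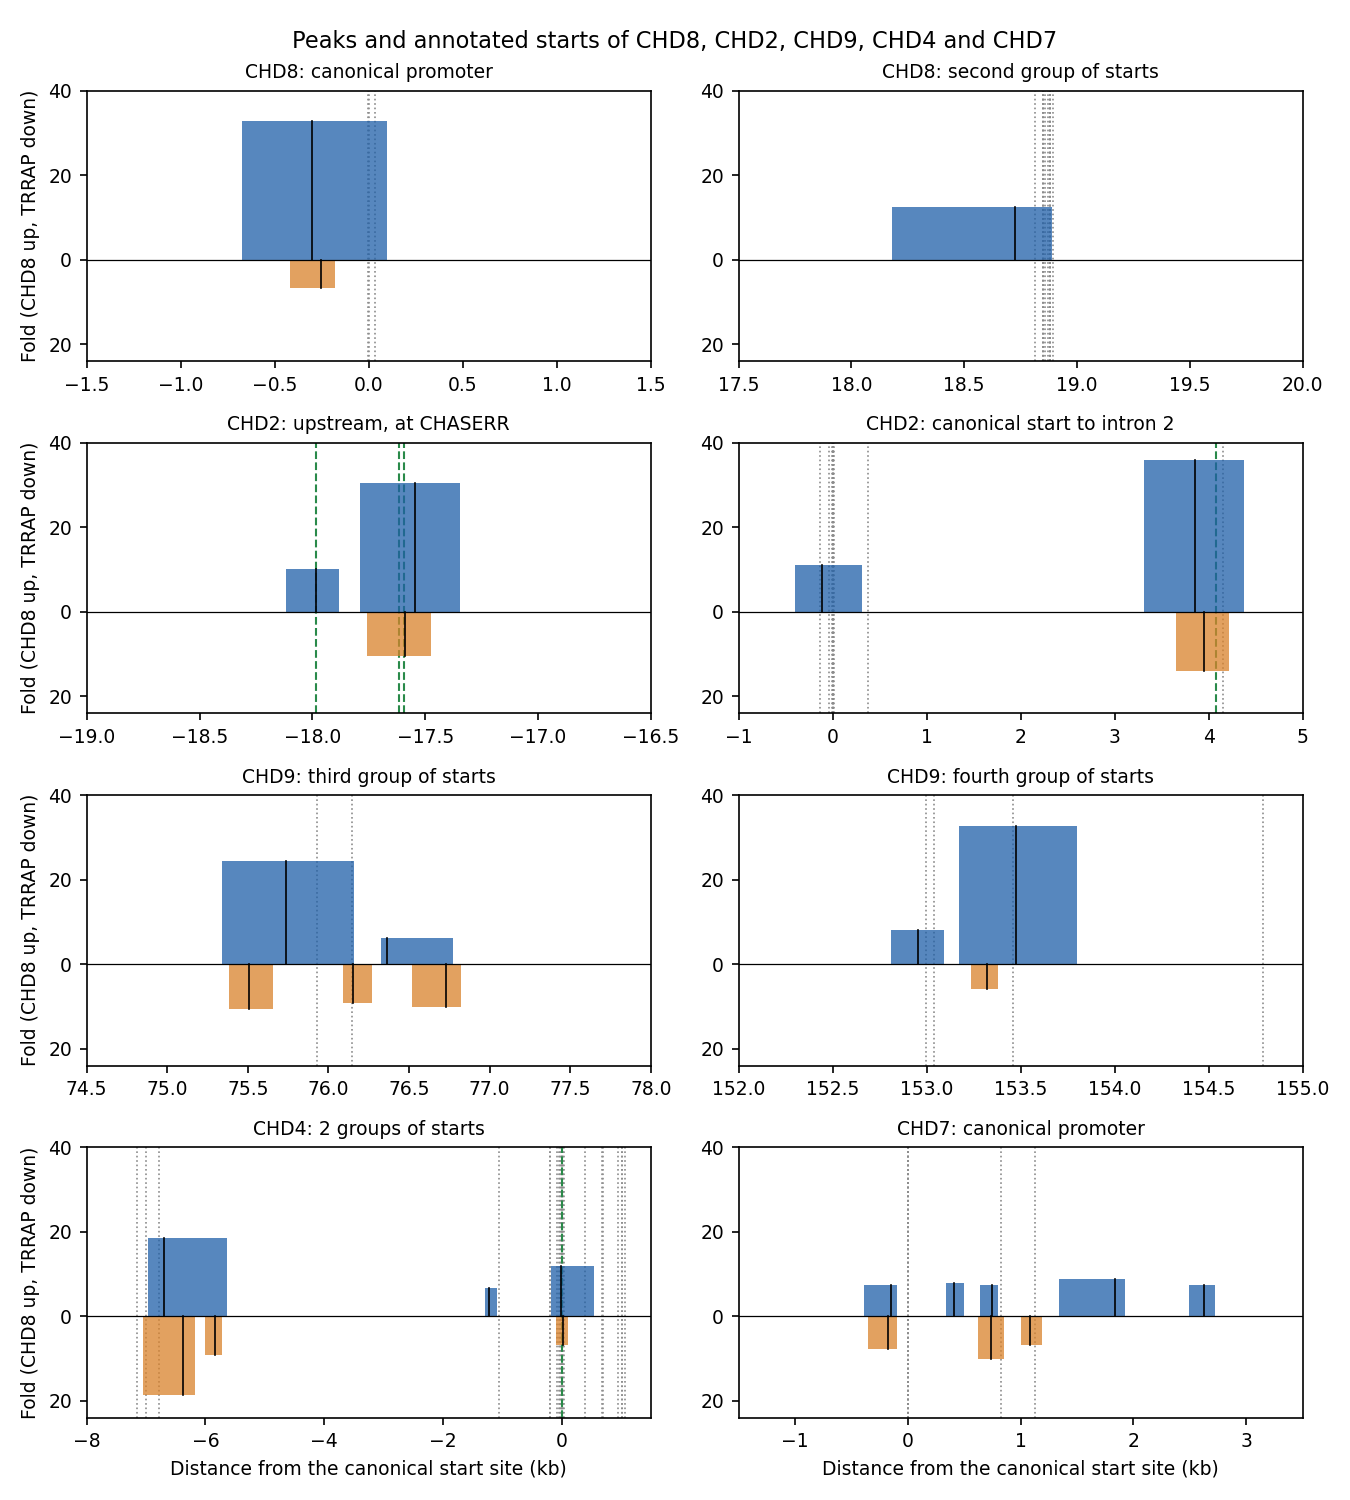
Peaks at selected sites of CHD8, CHD2, CHD9, CHD4 and CHD7, drawn to scale by distance from the canonical start site (kb), with CHD8 folds upward, TRRAP folds downward and a black line at each summit. Grey dotted lines are annotated starts of the gene and green dashed lines those of other genes. The peaks of CHD7 all have CHD8 folds under 10, while those of CHD8, CHD2 and CHD9 reach above 30.

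CHD9 had the most CHD8 peaks of the family, 8 with neighbouring peaks counted apart, a number reached or passed by 0.474% of all protein-coding genes. The canonical promoter on chromosome 16 held a modest one (53054861 to 53055400, fold 7.98, summit 19 bp downstream in the 5′ UTR) and no TRRAP peak. The strongest was in intron 2 at 53208165 to 53208792 (628 bp, fold 32.7, −log10 q 91.0), 153477 bp into the gene, with its summit 17 bp past the start of another protein-coding transcript. In fold, and with it in significance, it tied with the promoter peak of the CHD8 gene. The next, in intron 1 at 53130331 to 53131151 (821 bp, fold 24.3, −log10 q 60.2), had its summit at −191 bp from the start of a further protein-coding transcript. The other 5 had folds from 6.22 to 8.43.

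TRRAP had 4 peaks in CHD9, and 3 of them were grouped at the intron 1 site: 53130374 to 53130645 (fold 10.6), 53131082 to 53131264 (fold 9.12, summit 8 bp past the start of a protein-coding transcript) and 53131507 to 53131813 (fold 10.1). The 4th was at the intron 2 site (53208228 to 53208372, fold 5.78), stronger than only 3.94% of the TRRAP list although the CHD8 peak over it was stronger than 97.8% of its own. Sequence at the sites differed. Within 250 bp of the CHD8 summit the CpG ratio was 0.971 in intron 1 and 0.249 in intron 2, against medians of 0.829 over all CHD8 promoter peaks and 0.390 over all others on the main chromosomes.

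CHD2 showed the strongest CHD8 peak of the family away from its canonical promoter. On chromosome 15, at 92903631 to 92904702 (1072 bp), the fold was 35.8 and the −log10 q 102, stronger than 98.4% of the list. The summit lay in intron 2, 3859 bp downstream of the canonical start site and at −290 bp from the start of another protein-coding transcript, and at −216 bp from the microRNA gene MIR3175. TRRAP had a peak inside it (92903973 to 92904538, fold 13.9, stronger than 86.8% of the TRRAP list), with summits 91 bp apart. By contrast, the canonical promoter peak (92899927 to 92900635, fold 11.1, summit at −116 bp) had no TRRAP counterpart. A further intron 2 peak, 92917865 to 92918188, reached a fold of 18.1 without TRRAP.

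Upstream of CHD2 lies CHASERR, a long non-coding RNA gene on the same strand that is known to restrain CHD2 expression in cis. A CHD8 peak at 92882536 to 92882979 (444 bp, fold 30.5, −log10 q 82.2) had its summit 46 bp downstream of an annotated CHASERR start, and a TRRAP peak at 92882567 to 92882849 (fold 10.6) had its summit 2 bp from that start. That start is at −17592 bp from the canonical CHD2 start site. It falls in the span because the annotated gene begins at −14121 bp, with a CHD2 transcript that is annotated as a retained intron. A weaker CHD8 peak (92882207 to 92882440, fold 10.2) was centred on the start of ENSG00000288872, a long non-coding RNA gene on the opposite strand. By fold, the start of CHASERR and the intron 2 site were thus above the CHD2 promoter in the CHD8 list, and TRRAP was called at both and not at the promoter.

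CHD1, the other member of subfamily I, had a single CHD8 peak, and it was the widest of the family: 1845 bp on chromosome 5 (98928042 to 98929886), wider than the strongest promoter peak of 98.9% of genes with one. Its fold of 11.5 was near the median. It covered the start of CHD1, with the summit 314 bp downstream in the 5′ UTR, and that of CHD1-DT, a long non-coding RNA gene that starts just upstream on the opposite strand. Inside it were 2 narrow TRRAP peaks, 98928860 to 98929068 (209 bp, fold 7.21, summit at −15 bp from the CHD1 start) and 98929387 to 98929511 (125 bp, fold 7.69, summit at −462 bp). The promoter had a CpG ratio of 1.08, above 99.7% of genes.

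In subfamily II, the strong peaks of CHD4, the main NuRD motor of dividing cells, were at its upstream starts. At the canonical start site on chromosome 12 a CHD8 peak (6606844 to 6607557, fold 12.0) and a TRRAP peak (6607280 to 6607475, fold 6.73) had summits 28 bp apart, and both also covered the start of ENSG00000285238, an annotated coding gene 12 bp away. Upstream, the CHD8 peak from 6613018 to 6614353 (1336 bp) had its summit at −6703 bp. That was 83 bp past the start of another CHD4 transcript, one annotated without a defined coding sequence. The peak had a fold of 18.6 and a −log10 q of 41.2. The TRRAP peak there, 6613558 to 6614424 (867 bp), had a fold of 18.7 and was stronger than 94.0% of the TRRAP list, the highest rank of any TRRAP peak of the family. A second TRRAP peak (6613097 to 6613384, fold 9.12) lay under the same CHD8 peak. The summits of CHD8 and the stronger TRRAP peak were 330 bp apart, so the signals did not share a centre.

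CHD3, also a NuRD motor, had 5 CHD8 peaks on chromosome 17, all before or just after the canonical start site. Those touching the promoter window were 7887513 to 7887969 (fold 9.75, summit at −1077 bp) and 7889350 to 7889522 (fold 6.66, intron 1). The strongest was further upstream (7885294 to 7886558, 1265 bp, fold 10.2), at −628 bp from the start of another protein-coding CHD3 transcript and −331 bp from an annotated start of NAA38, a gene on the opposite strand that encodes a subunit of an N-terminal acetyltransferase complex. The only TRRAP peak of CHD3 was there too (7885352 to 7886239, 888 bp, fold 14.9, stronger than 89.0% of its list). Which of the genes this shared region belongs to cannot be told apart from position. The canonical start of CHD3 was poor in CpG (ratio 0.252), and 5.89% of genes in its decile had a CHD8 promoter peak. CHD2 had a similar canonical start (ratio 0.348, 19.4%).

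CHD5 had no peak of either list in its 78.5 kb or in the 5 kb before it. It is known as the neuronal member of subfamily II. Its promoter on chromosome 1 was rich in CpG (ratio 0.889), and in that decile 81.0% had a CHD8 and 61.1% a TRRAP promoter peak. The nearest CHD8 peak was 19.3 kb upstream of the start site (6199152 to 6200174, fold 19.0), outside the span. The nearest TRRAP peak (6199445 to 6199603, fold 7.21) lay within that CHD8 peak and so also outside the span. A missing peak says only that none passed the threshold of the list, and signal below it was not analysed here.

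CHD6 carried a wide CHD8 peak on chromosome 20 (41617985 to 41618999, 1015 bp, fold 13.7, summit 191 bp downstream in intron 1), a minor one beside it (41617679 to 41617861, fold 7.54), and 2 weak TRRAP peaks at 41618553 to 41618782 (fold 5.78) and 41618860 to 41619011 (fold 6.73). Its TRRAP summits were at −283 and −568 bp, on the other side of it from the CHD8 summit, 474 bp from it at the nearest. In its 216 kb the gene had no other peak.

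**Figure D3:**
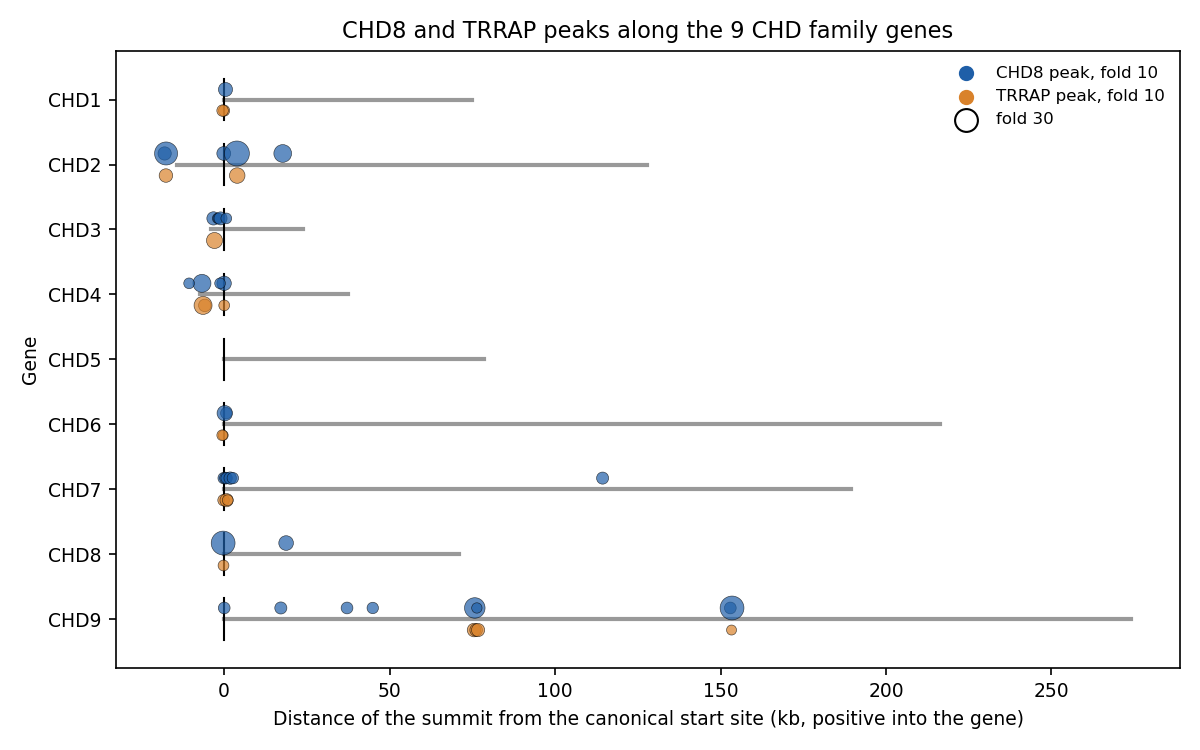
Summits of all 33 CHD8 peaks (blue, upper row of each gene) and 18 TRRAP peaks (orange, lower row) by distance from the canonical start site in kb, with point area proportional to fold, a grey bar for the annotated gene and a black tick at the canonical start. CHD5 is empty, and the points of CHD2, CHD8, CHD7 and CHD9 extend well into the gene in the CHD8 row.

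Across the family, the peaks away from canonical promoters lay mostly at other annotated starts. Of 21 such CHD8 peaks, 13 had the summit within 1 kb of another start of the same gene, and of 9 such TRRAP peaks 8 did, beside 30.8% and 32.7% over all protein-coding genes. Neighbouring peaks count apart here, such as the TRRAP peaks grouped at the intron 1 site of CHD9 and those upstream of CHD4. The counts are therefore not of separate sites. The CHD genes have many annotated starts, a median of 19 (6 to 53) against 5 over all genes, and the part of this in the counts was not tested. All 5 CHD8 peaks in the gene body away from any start of the gene lacked TRRAP, as did 58.3% of such peaks over all protein-coding genes, and 5 peaks are too few to read a difference from. The other 3 CHD8 peaks lay upstream of all annotated starts of their gene. With every annotated start taken as a promoter, CHD8 was at 8 of 9 genes (59.2% of all genes), TRRAP at 8 of 9 (38.3%) and both at 8 of 9 (37.3%), since CHD2, CHD3 and CHD9 gained a TRRAP peak. In 5 of the 6 CHD genes with CHD8 peaks both at the promoter and elsewhere (CHD2, CHD3, CHD4, CHD7 and CHD9), the highest-ranked peak was elsewhere, beside 40.6% of all genes of that kind. The fold was higher by only 1 step at CHD3 and 2 steps at CHD7, so the order is plain at 3 genes, CHD2, CHD4 and CHD9. In the CHD8 gene the promoter peak was the higher.

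Longer genes have more room for peaks, so the number of CHD8 peaks was set against protein-coding genes within 1.5 times the length of each CHD gene. As many or more were found in 1.37% of such genes for CHD3, 2.66% for CHD9, 3.66% for CHD4, 4.33% for CHD7 and 5.53% for CHD2. The share was 32.2% for the CHD8 gene, 48.4% for CHD6 and 74.7% for CHD1, and CHD5 had no peak. Neighbouring peaks were counted apart, and these shares are for unmerged peaks. With peaks closer than 500 bp merged, the family held 24 CHD8 peaks in place of 33 and 12 TRRAP peaks in place of 18.

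TRRAP peaks nearly all fell on CHD8 peaks. Of 18 in the spans, 17 overlapped a CHD8 peak by at least 1 bp, beside 90.1% over the spans of all coding genes, and of 33 CHD8 peaks 13 overlapped a TRRAP peak, beside 48.0%. Both shares are near those of other genes. The summits of overlapping peaks were between 7 and 861 bp apart as measured from the TRRAP peaks, with a median of 271 bp, and 7 TRRAP peaks had a CHD8 summit within 200 bp. All 51 summits were single-copy by a median: the 32-base words in the 101 bp around each summit had a median of 1 occurrence in the reference.

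Exact words, on either strand, were sought in the sequence at the summits. Up to 100 bp from the strongest CHD8 promoter summit, 3 of the 8 genes with one carried a word: CHD4 and CHD6 held GGGGCGGGG (17% of all CHD8 promoter peaks) and CHD8 held CCAAT (17.9%), and 43.6% of all CHD8 promoter peaks held at least one of the words searched. These shares count every promoter peak, not only the strongest of each gene, so the sets are not alike. Within 100 bp of the summit, 1 of the 33 CHD8 peaks of the family held the E-box CACGTG, bound by MYC and its partner MAX. That peak was the one of the shared CHD3 and NAA38 region. The E-box was in 5.37% of the 23052 CHD8 peaks on the main chromosomes, the set to which the next shares also refer. The next counts and shares are also for 100 bp on each side of the summit, not for whole peaks. The E2F words TTTGGCGC, TTTCCCGC, TTTGCCGC and TTTCGCGC (2.57%), the ETS word CCGGAAGT (3.63%) and the NRF1 (0.62%) and full YY1 (1.36%) words were in none of the 33. CCAAT was in 8 of the 33 (17.9%) and GGGGCGGGG in 5 (12%). Words with a mismatch were not counted.

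The core word AANATGGC, 8 bases of which the third may be any base, was seen in the printed sequences and then counted. All 5 CHD8 peaks of the family with a fold above 20 held it within 100 bp of the summit: both strong CHD2 sites, both strong CHD9 sites and the CHD8 promoter. Of the other 28 CHD8 peaks 3 held it, the intron 2 peak of CHD2 with a fold of 18.1, the CHD4 promoter peak and an intron 1 peak of CHD7. Because the word was picked from these peaks, its count in them supports nothing. Over the 23052 CHD8 peaks on the main chromosomes, of which these are a small part, 37.1% of the strongest decile of peaks held it (856 of 2306) and 2.47% of the weakest (57 of 2306). At promoters the shares were 42.9% and 1.77%, and away from promoters 13.8% and 2.98%. In the strongest decile, sequence 1 kb to the left of the summit held it in 2.78%. TRRAP peaks showed no such slope, with 3.63% in the strongest decile and 5.1% in the weakest.

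**Figure D4:**
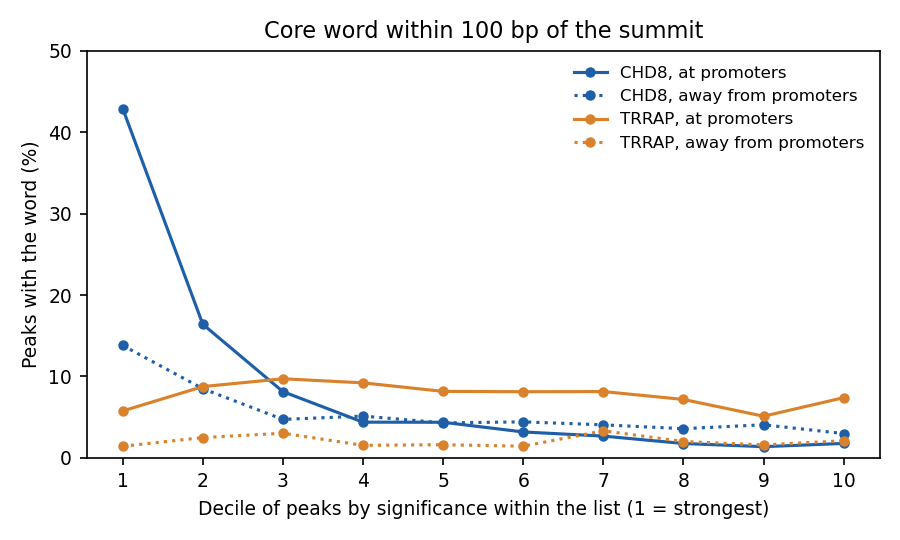
Percentage of peaks on the main chromosomes with AANATGGC within 100 bp of the summit, by decile of each list from strongest (1) to weakest (10), for peaks at canonical promoters (solid) and elsewhere (dotted). The CHD8 promoter line falls from 42.9% to 1.77%, and both TRRAP lines stay below 10%.

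Genes that work with the CHD proteins were counted in lists written from general knowledge. Over all protein-coding genes 55.9% had a CHD8 promoter peak, 34.9% a TRRAP one and 34.0% both, against which the counts are to be read. All 12 NuRD subunit genes had a CHD8 promoter peak and 5 had TRRAP as well, with the highest CHD8 folds at RBBP4 (32.3, a histone chaperone), GATAD2B (27.4) and CDK2AP1 (23.0). The CDK2AP1 peak reached into the promoter window from a summit 2262 bp downstream of the canonical start site. Of 8 genes for proteins associated with CHD8, 8 had CHD8 and 7 had both, all but DPY30. The highest folds there were at RBBP5 (53.1), a core subunit of histone H3 lysine 4 methyltransferases, CTNNB1 (51.3), which encodes beta-catenin, and CTCF (48.6), each above the fold at the CHD8 gene. Of 14 genes for other SNF2-type remodelers, 13 had CHD8 and 10 both. SRCAP (59.2), RAD54L2 (32.7) and INO80 (25.2) led, SMARCA2 had neither peak at its canonical promoter, and BTAF1, ERCC6 and SMARCA1 had CHD8 without TRRAP. The median CHD8 folds of the lists were 13.7, 15.7 and 15.9, beside 12.0 over all genes with a CHD8 promoter peak.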

How the data were processed

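Occupancy of CHD8 and TRRAP was measured by ChIP-seq in 1 library each. Per the labels' protocols, crosslinking used 1% formaldehyde and 2 mM disuccinimidyl glutarate and chromatin was sonicated for 14 cycles. HISAT2, MACS2 2.1.1.20160309 and GRCh38 are named, without roles, per the submitters' processing notes. The control, filters and read totals are not given in the sources used here. The fold, a linear ratio over background, the −log10 p and −log10 q and the score (10 times the −log10 q, rounded down) are deposited values of the authors. File names give a false discovery rate of 0.0001 for CHD8 and a looser 0.001 for TRRAP.

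All 84 and 88 sequence names of the lists were found in the GRCh38 reference, and 0 peaks ran past a sequence end. Sequence words and CpG ratios were taken at the peaks on the main chromosomes, without 341 CHD8 and 426 TRRAP peaks on other sequences. Coordinates count from 1. Ranks follow −log10 q, then fold and width. Canonical transcripts are those marked so in GENCODE. Python 3.11.15, numpy 2.4.6, pandas 2.3.3, pysam 0.24.0, numba 0.67.0 and matplotlib 3.10.9 were used, and the functions were tested on simulated peaks. With 1 library per antibody no test was run and no p-value is given. Named were all 9 genes with their promoter peaks and strongest other peaks, genes starting within 1 kb of those, the 3 highest folds of each partner list, genes lacking a peak where 5 or fewer, and the 3 genes most like CHD8. Members, lists and windows were chosen with earlier results of these data known.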

Additional observations from a re-analysis of the deposited data

How the results depend on the processing

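The core word and its use as an alternative were chosen after seeing the data, and the other alternatives were planned. Taking the starts of all transcripts moved the number of CHD genes with a TRRAP promoter peak, and the number with both peaks, from 5 to 8. With peaks above the median rank of their list, TRRAP remained at the promoter of 1 gene and 0 genes had both, 15 CHD8 and 9 TRRAP peaks were left in the spans, and 7 TRRAP and 5 CHD8 peaks overlapped the other list, which follows from the smaller lists. With summits within 200 bp as the rule, 7 TRRAP and 7 CHD8 peaks overlapped. The number of genes with a CHD8 promoter peak stayed between 6 and 8. It was 7 with a promoter window of 500 bp, in which CHD3 had no CHD8 peak. In all, 20 of 30 alternatives moved a count by at most 1.5 times. No paired analysis was possible because each antibody had 1 library. Read depth is unknown, so weak folds carry an error that cannot be given.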

Other observations

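For genes that mark neural stem cells, CHD8 had a promoter peak at all 8 on the list (SOX1, SOX2, PAX6, NES, MSI1, VIM, HES1 and FABP7), and TRRAP at 6, all but MSI1 and FABP7, beside 55.9% and 34.9% of all protein-coding genes. Of 4 genes that mark pluripotent cells, LIN28A and DPPA4 had both peaks, and NANOG and POU5F1 had neither in their spans. Occupancy is not expression, so this is no check of the cells' identity. The CHD8 folds of SOX2 (12.8) and PAX6 (12.8) lay between those of CHD4 and CHD6, and that of DPPA4 (20.4) was below that of the CHD8 gene.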
